A study of Mus musculus with 12 samples.

Results

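The metallothionein genes Mt1 and Mt2 and 4 genes that set or sense the zinc content of a cell, Mtf1, Slc30a1, Slc39a6 and Slc39a14, were followed in cultured mouse hernia-associated fibroblasts (HAFs). These 6 genes were picked by name, with earlier results of these data known, and all 6 were among the 13233 genes of the deposited expression table. HAFs were primary fibroblasts grown from the lower abdominal muscle of Aromhum mice, which carry the human aromatase gene and therefore make estrogen in this tissue. All 12 RNA-Seq samples came from such cells, so every group shared the Aromhum background, and the groups differed only in what was added to the culture for 48 h. The vehicle group received the solvents ethanol and DMSO. The E2 group received 10 nM 17β-estradiol (E2), the natural ligand of the estrogen receptor ESR1. The E2 plus fulvestrant group received 10 nM E2 and 100 nM fulvestrant, a steroidal antagonist that leads to the degradation of ESR1. The fulvestrant group received 100 nM fulvestrant alone. Each group had 3 samples, numbered 1 to 3. The labels used here do not say whether same-numbered samples came from the same animal or culture, nor give the age of the mice, which were male in this study. The p-values of the main fit measure the spread of these samples that is left after the replicate number is taken into account. Whether that spread is one between animals is not known.

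Metallothioneins are small cysteine-rich proteins that bind zinc and copper and buffer the free metal in the cell. When free zinc rises, the zinc-finger transcription factor MTF1 binds metal response elements in the promoters of Mt1, Mt2 and Slc30a1 and switches them on, and glucocorticoids and oxidants are also known inducers of Mt1 and Mt2. Zinc leaves the cytosol through transporters of the SLC30 (ZnT) family and enters it through transporters of the SLC39 (ZIP) family. ZIP6, encoded by Slc39a6, is known as an estrogen-regulated gene in breast cancer cells, and ZIP14, encoded by Slc39a14, carries zinc, iron and manganese.

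The samples held between 18827792 and 44040507 reads on the listed genes, and the 6 genes had between 679 and 10737 reads each in any sample. Values are given as normalized counts, which are reads divided by a size factor for each sample. The replicate 1 samples stood apart from the others. Within a group, a chi-square comparison of the reads over genes gave 179.1 to 224.5 per degree of freedom for pairs that included replicate 1 and 4.3 to 23.5 for replicates 2 and 3, where 1 would be sampling noise. All 10 fibroblast markers examined were listed. Their summed normalized count was 487380 to 552350 in vehicle, 560907 to 623159 with E2, 422512 to 442418 with E2 plus fulvestrant and 391540 to 459609 with fulvestrant. With fulvestrant, 4 of these 10 markers fell against vehicle (5.69% of all genes were called lower) and 5 fell in the presence of E2 (4.62%), with 0 called higher. Among those that fell was Esr1 itself, which codes for the receptor (log2 fold change −1.46 ± 0.20 and −2.26 ± 0.20, SE). Without the replicate block 0 of the 10 were called in either comparison, beside 0.544% and 0.521% of all genes, and the limma adjusted p of Esr1 was 0.363 and 0.0925. Few markers of other cell types were listed. Ttn was the listed gene of 8 myogenic markers, Cd68 and Lyz2 of 6 immune markers, and Tek of 5 endothelial markers, while Pax7, Myod1, Ptprc, Pecam1 and all 5 adipocyte markers were not listed. In vehicle, E2, E2 plus fulvestrant and fulvestrant, in that order, the summed immune signal was 161 to 389, 91 to 361, 131 to 188 and 136 to 172, and the endothelial signal 58 to 277, 65 to 166, 84 to 259 and 71 to 193. The immune markers went apart. Lyz2 differed by −0.80 against vehicle with fulvestrant (limma adjusted p = 0.0795) and fell with E2 plus fulvestrant (−0.96, limma adjusted p = 0.0403, or 0.931 without the replicate block), and Cd68 differed by 0.10 and 0.20 (limma adjusted p = 0.863 and 0.705). Between E2 plus fulvestrant and E2, Lyz2 differed by −0.65 and Cd68 by 0.76 (limma adjusted p = 0.165 and 0.125). S100b, a Schwann cell marker, had a mean normalized count of 45.6 in vehicle, 60.3 with E2 and 31.9 in each group with fulvestrant. It fell in the presence of E2 (log2 fold change −0.91, with a limma adjusted p of 0.0228, or 0.945 without the replicate block) and differed by −0.46 against vehicle (limma adjusted p = 0.189). The part of these shifts in the results below was not tested.

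Per kilobase of annotated exon, the metallothioneins were far more abundant than the transporters. In vehicle the mean normalized count per kilobase was 5374 for Mt2, 2568 for Mt1, 936 for Slc39a6, 284 for Slc30a1, 147 for Slc39a14 and 110 for Mtf1, and the order of the 6 genes was the same in all 4 groups. These lengths merge every annotated exon of a gene, so a cell that uses a short isoform would give a higher value per kilobase.

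Mt1 (ENSMUSG00000031765; GRCm38 chr8:94179082-94180327, plus strand) and Mt2 (ENSMUSG00000031762; chr8:94172664-94173568, plus strand) lie next to each other, with 5513 bases between the end of Mt2 and the start of Mt1. They are close paralogs, so reads could be shared between them where their sequences match. In addition, 73.5% of the Mt2 exon sequence is overlapped on the opposite strand by Gm45774, and the counting used strand. The promoters of both genes are shown because they carry the metal response element core, searched here as TGCACNC or TGCGCNC on both strands, in a window from 250 bases before to 50 bases after the RefSeq start (GRCm38.p6). This core occurred in 25.7% of 32851 RefSeq promoters of the same length. The Mt1 window held 3 matches and the Mt2 window 4, and 4 or more matches occurred in 0.517% of all promoters. In the sequences upstream of the start, which read 5′ to 3′ on the plus strand, capitals mark the matches.
Mt1, chr8:94178839-94179081: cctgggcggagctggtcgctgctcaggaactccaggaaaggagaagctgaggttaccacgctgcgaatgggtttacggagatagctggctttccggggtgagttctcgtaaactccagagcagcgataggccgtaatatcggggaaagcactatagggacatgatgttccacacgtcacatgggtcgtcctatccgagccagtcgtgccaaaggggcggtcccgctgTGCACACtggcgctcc
Mt2, chr8:94172368-94172617: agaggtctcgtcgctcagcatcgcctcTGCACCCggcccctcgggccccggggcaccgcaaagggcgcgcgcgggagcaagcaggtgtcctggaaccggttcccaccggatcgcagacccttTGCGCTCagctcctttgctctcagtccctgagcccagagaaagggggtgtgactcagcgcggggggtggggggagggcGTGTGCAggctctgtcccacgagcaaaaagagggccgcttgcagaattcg
The remaining matches lay just after the RefSeq start, 2 in Mt1 within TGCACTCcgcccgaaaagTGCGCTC (chr8:94179091-94179115) and 1 in Mt2 as GTGCGCA (chr8:94172622-94172628). The gene positions given above are from GENCODE, by which this Mt2 match lies before the start of the gene (chr8:94172664). The Mt2 window and that of Slc30a1, described below, also held 1 match each to the antioxidant response element core TGACNNNGC, which occurred in 12.4% of all promoters. Neither metallothionein window held a full estrogen response element (GGTCA and TGACC, 3 bases apart, in 0.07% of promoters) or a full glucocorticoid response element (AGAACA and TGTTCT, 3 bases apart, in 0.00913%). A match is a description of these letters and says nothing on binding.

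Both metallothionein genes rose with fulvestrant, with or without E2, and Mt2 had the largest fold change of the 6 genes in both comparisons. Mt2 had normalized counts of 1168, 4435 and 3877 in vehicle replicates 1, 2 and 3, and of 1436, 5427 and 5103 with E2. With E2 plus fulvestrant it stood at 5403, 9319 and 9657, and with fulvestrant alone at 3972, 8721 and 11086. Within each replicate number, both samples with fulvestrant lay above both samples without it, whereas across replicate numbers the fulvestrant sample of replicate 1 lay below vehicle replicate 2. Against vehicle, fulvestrant raised Mt2 by 1.42 ± 0.19 on the log2 scale (SE, 2.67-fold, 95% CI 1.99 to 3.59, limma adjusted p = 9.3e-04), with differences of 1.77, 0.98 and 1.52 in the 3 same-numbered pairs. In the presence of E2 the rise was 1.2 ± 0.19 (2.30-fold, 95% CI 1.71 to 3.10, limma adjusted p = 0.00282), with 1.91, 0.78 and 0.92 in the 3 pairs. These tests compare samples within replicate numbers. Without that block the limma adjusted p was 0.664 and 0.808, and neither comparison passed. Over all 23 alternatives it ran from 3.1e-05 to 0.664 and from 4.2e-04 to 0.808.

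Mt1 moved in the same direction as its neighbor. Its normalized counts were 1399, 4526 and 3673 in vehicle and 1562, 5716 and 4860 with E2, against 3991, 6706 and 7206 with E2 plus fulvestrant and 2763, 6964 and 8949 with fulvestrant. The replicate 1 sample was the lowest of its group in all 4 groups, and the ranges of the groups overlapped, but within every replicate number both fulvestrant samples again exceeded both others. Fulvestrant raised Mt1 against vehicle by 0.96 ± 0.18 (SE, 1.95-fold, 95% CI 1.48 to 2.56, limma adjusted p = 0.00511). In the presence of E2 it raised Mt1 by 0.72 ± 0.18 (1.64-fold, 95% CI 1.25 to 2.16, limma adjusted p = 0.0256), and the 3 pairs were uneven at 1.35, 0.23 and 0.57. The unblocked fit gave a limma adjusted p of 0.90 and 0.992, and over all 23 alternatives it ran from 6.1e-04 to 0.90 and from 0.0232 to 0.992. Leaving out the replicate 1 samples of all groups gave 0.95 against vehicle (limma adjusted p = 6.2e-04) and 0.40 in the presence of E2 (limma adjusted p = 0.0683), so the second call ended without them. That call was also lost without the replicate 1 or 3 sample of either group compared, with a log2 fold change of 0.40 to 0.96 when samples were left out. Leaving out replicate 3 ended both Mt1 calls, at 0.80 and 0.79 (limma adjusted p = 0.126 and 0.138), and the Mt2 call in the presence of E2, at 1.35 (limma adjusted p = 0.053).

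**Figure D1:**
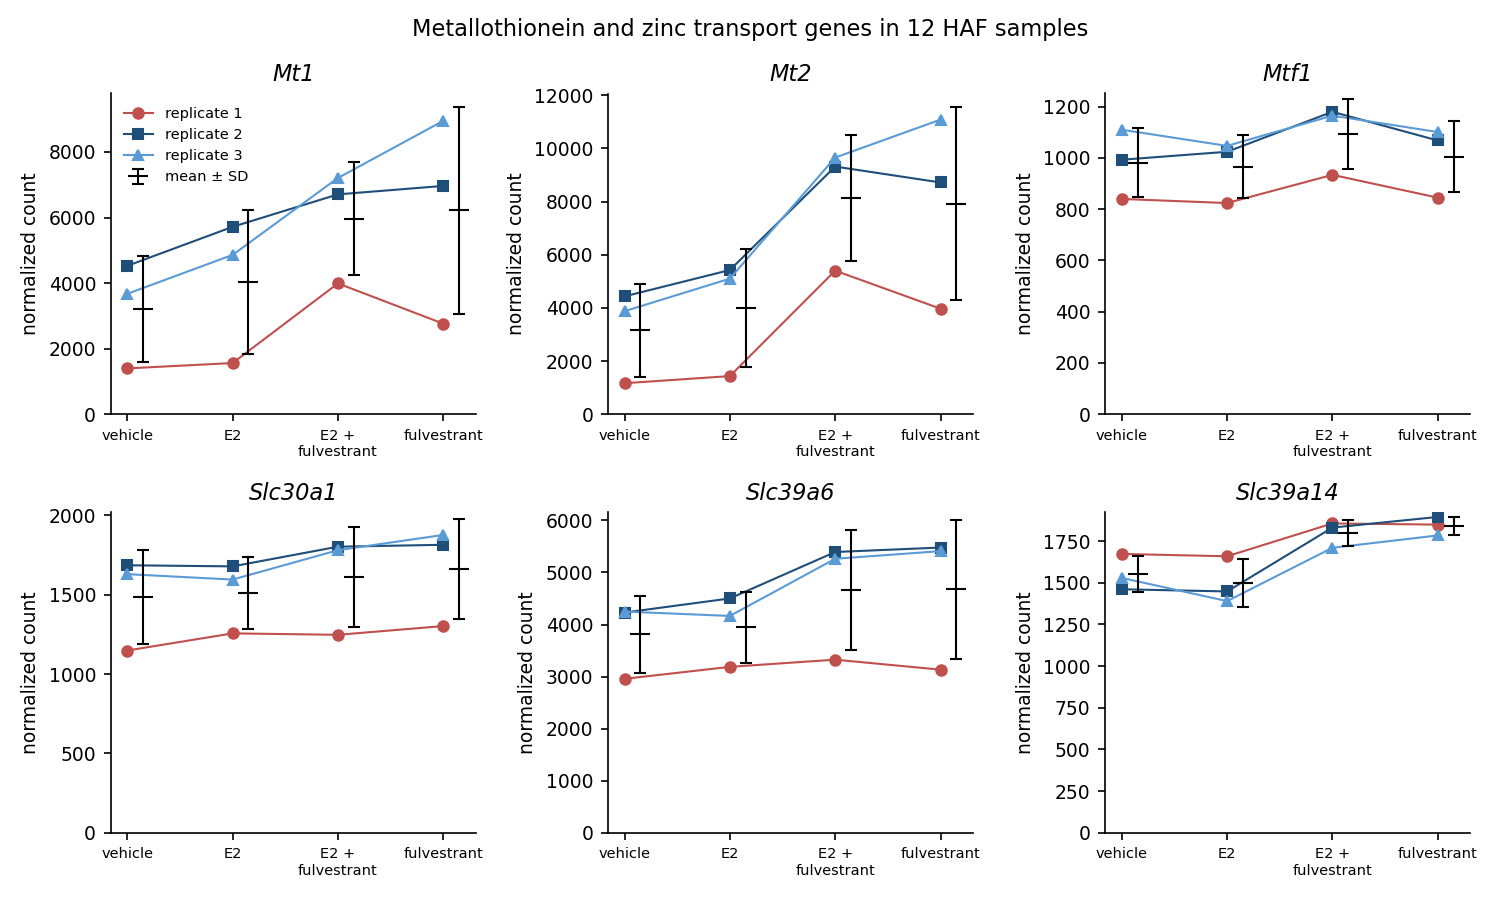
Normalized counts (y axis, from 0) of the 6 genes in the 4 groups (x axis); lines join samples with the same replicate number, and black bars show the mean ± SD of 3 samples. For Mt1 and Mt2 every line climbs from the groups without to the groups with fulvestrant, and the replicate 1 line runs below the others in all panels except that of Slc39a14.

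The ratio of Mt2 to Mt1 within a sample also separated the groups. This ratio was chosen after its values were seen and is given without a test. Mt2 over Mt1 was 0.83, 0.98 and 1.06 in vehicle and 0.92, 0.95 and 1.05 with E2. It was 1.35, 1.39 and 1.34 with E2 plus fulvestrant and 1.44, 1.25 and 1.24 with fulvestrant. All 6 samples with fulvestrant thus lay above all 6 samples without it, including those of replicate 1, and no difference in total reads between samples enters such a ratio.

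**Figure D2:**
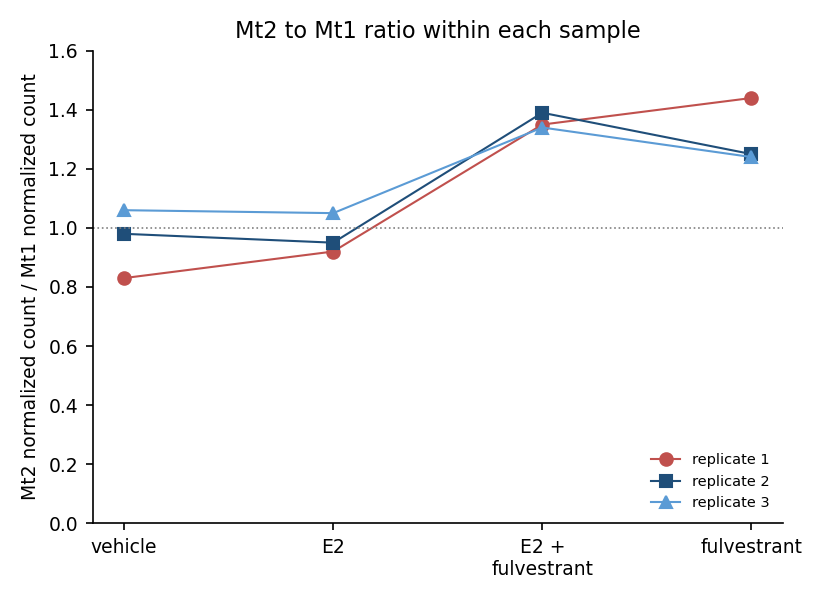
Mt2 normalized count divided by Mt1 normalized count (y axis) in each sample of the 4 groups (x axis), with lines joining same-numbered samples and a dotted line at 1. Samples without fulvestrant lie between 0.83 and 1.06 and samples with it between 1.24 and 1.44.

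Mtf1 (ENSMUSG00000028890; chr4:124802104-124849800, plus strand), which codes for the zinc-sensing transcription factor, changed little. Its normalized counts were 840, 993 and 1110 in vehicle, 824, 1024 and 1047 with E2, 934, 1180 and 1165 with E2 plus fulvestrant, and 845, 1068 and 1101 with fulvestrant. The 4 groups overlapped, with replicate 1 the lowest in each. The difference between fulvestrant and vehicle was 0.03 (log2, 95% CI −0.09 to 0.15, limma adjusted p = 0.717). With E2 present it was 0.18 (95% CI 0.06 to 0.30, limma adjusted p = 0.056), positive in all 3 pairs, as in 26.4% of all genes, but not past the test. The level of the Mtf1 transcript does not show how much zinc the protein senses. Its RefSeq promoter window held 0 matches to the metal response element core.

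Slc30a1 (ENSMUSG00000037434; chr1:191906767-191913247, plus strand) codes for ZnT1, the zinc exporter of the plasma membrane, and is a classic target of MTF1. Its promoter is shown because it held 2 metal response element cores, 1 of them upstream of the start, in capitals below, and 1 after it as GAGCGCA (chr1:191906811-191906817).
Slc30a1, chr1:191906531-191906766: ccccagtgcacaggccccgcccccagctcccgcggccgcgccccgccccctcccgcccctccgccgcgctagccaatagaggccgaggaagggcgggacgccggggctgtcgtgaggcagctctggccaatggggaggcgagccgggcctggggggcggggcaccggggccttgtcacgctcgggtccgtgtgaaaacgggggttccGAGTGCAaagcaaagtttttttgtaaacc
Slc30a1 did not pass the test in any comparison. Its normalized counts were 1148, 1685 and 1629 in vehicle, 1256, 1678 and 1595 with E2, 1247, 1802 and 1780 with E2 plus fulvestrant, and 1302, 1814 and 1876 with fulvestrant. Fulvestrant exceeded vehicle in all 3 pairs, by 0.18, 0.11 and 0.20, as in 24.0% of all genes, while the groups overlapped. The mean difference was 0.16 (log2, 95% CI 0.05 to 0.28, limma adjusted p = 0.0562), and in the presence of E2 it was 0.08 (95% CI −0.03 to 0.20, limma adjusted p = 0.331). Both upper limits lie below the lower limits for Mt1 and Mt2 in the same comparisons, although the difference between genes was not tested.

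Slc39a6 (ENSMUSG00000024270; chr18:24579881-24603817, minus strand), the ZIP6 importer gene, rose slightly with fulvestrant. Its normalized counts were 2957, 4230 and 4249 in vehicle, 3187, 4501 and 4165 with E2, 3325, 5393 and 5263 with E2 plus fulvestrant, and 3133, 5479 and 5410 with fulvestrant. Replicates 2 and 3 with fulvestrant lay above every sample without it, whereas replicate 1 hardly moved. The rise against vehicle was 0.27 ± 0.07 (log2, SE, 1.2-fold, limma adjusted p = 0.0261), just over the 1.2-fold minimum set for a call, with 0.08, 0.37 and 0.35 in the 3 pairs. With E2 present the difference was 0.22 (95% CI 0.06 to 0.37, limma adjusted p = 0.067), which did not pass. The call against vehicle ended without the replicate block (limma adjusted p = 0.957), under quantile scaling (0.23, limma adjusted p = 0.0652) and, on the fold minimum, under CPM scaling (0.23, limma adjusted p = 0.0483). Leaving out the replicate 2 or 3 sample of either group compared ended it too, at log2 fold changes of 0.22 to 0.36 when samples were left out. It held in 12 of 23 alternatives, over which the limma adjusted p ran from 0.00112 to 0.957. Without the replicate 1 samples, Slc39a6 passed in both comparisons, at 0.36 and 0.30.

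Slc39a14 (ENSMUSG00000022094; chr14:70303469-70351425, minus strand), the ZIP14 importer gene, had the least spread of the 6 and separated the samples with fulvestrant completely from those without it. Its normalized counts were 1673, 1461 and 1529 in vehicle and 1659, 1448 and 1390 with E2. They were 1856, 1831 and 1710 with E2 plus fulvestrant and 1849, 1895 and 1784 with fulvestrant, so that all 6 samples with fulvestrant lay above all 6 without it. Groups that did not overlap on the higher side made up 5.7% of all genes for fulvestrant against vehicle and 5.97% in the presence of E2. Replicate 1 was not low here and was the highest of its group in 3 of 4 groups. The rise in the presence of E2 was 0.27 ± 0.06 (log2, SE, 1.2-fold, limma adjusted p = 0.0153) and was called. Against vehicle it was 0.25 ± 0.06 (1.19-fold, limma adjusted p = 0.0177), which passed on p and fell short of the 1.2-fold minimum. The unblocked limma adjusted p was 0.363 and 0.384, and under quantile and CPM scaling the difference in the presence of E2 was 0.25 (limma adjusted p = 0.0223 and 0.0211), under the fold minimum. It was lost as well without the replicate 2 or 3 sample of either group compared, at log2 fold changes of 0.23 to 0.32 when samples were left out. That call held in 14 of 23 alternatives, over which the limma adjusted p ran from 0.00861 to 0.363.

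Across the 6 genes, fulvestrant against vehicle called 3 higher (Mt1, Mt2 and Slc39a6) and 0 lower, where 6.76% of all genes were called higher and 5.69% lower. With E2 present it called 3 higher (Mt1, Mt2 and Slc39a14) and 0 lower, beside 4.97% and 4.62% of all genes. The median log2 fold change of the 6 was 0.26 and 0.24, and that of all genes was 0.01 in both comparisons. Without the replicate block 0 of the 6 were called in either comparison, beside 0.544% and 0.521% of all genes in either direction. Without the replicate 1 samples, 4 of the 6 were called higher against vehicle and 3 in the presence of E2, when 1331 and 893 of all genes were. Without the replicate 3 samples the counts were 1 and 0, and those of all genes fell to 215 and 138, from 895 and 658. Within every replicate number, both samples with fulvestrant exceeded both samples without it for Mt1, Mt2 and Slc39a14, an order that 11.5% of all genes showed. The share of higher calls depended on the scaling. Of all genes called against vehicle, 54.3% were higher on the deposited scale and 42.3% under CPM, and in the presence of E2 the shares were 51.8% and 45.9%, while Mt1 and Mt2 stayed called higher under both.

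**Figure D3:**
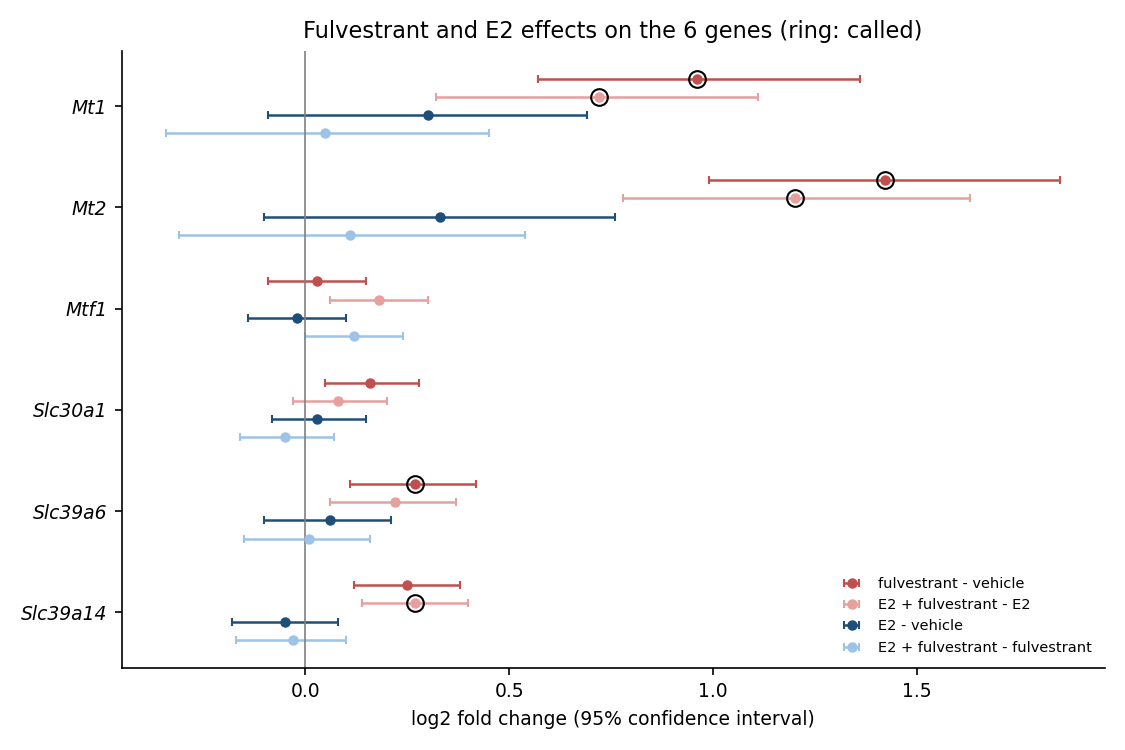
Log2 fold changes (x axis) of the 6 genes (y axis) in 4 comparisons, with bars for the 95% confidence interval and rings around called values. Mt2 lies furthest to the right in both fulvestrant comparisons, at 1.42 and 1.2, while the intervals of E2 against vehicle cross 0 for all 6 genes.

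E2 alone called 0 of the 6 genes (limma), in a comparison that called 0.0756% of all genes (10 genes, all higher) and had 1340 genes at an unadjusted p under 0.05. Mt1 and Mt2 nevertheless were higher with E2 in all 3 pairs, by 0.16, 0.34 and 0.40 for Mt1 and by 0.30, 0.29 and 0.40 for Mt2. An order of this kind was shown by 21.7% of all genes. The mean differences were 0.30 (log2, 95% CI −0.09 to 0.69, limma adjusted p = 0.579) for Mt1 and 0.33 (95% CI −0.10 to 0.76, limma adjusted p = 0.575) for Mt2. A fit on the vehicle and E2 samples alone called Mt2 (limma adjusted p = 0.0392), and over all alternatives its adjusted p ran from 0.0392 to 1. Slc39a6, the estrogen-regulated importer of breast cancer cells, differed by 0.06 (95% CI −0.10 to 0.21, limma adjusted p = 0.798). Slc39a14 differed by −0.05, Slc30a1 by 0.03 and Mtf1 by −0.02, with intervals that reached no further than 0.18 from 0.

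Adding E2 to fulvestrant gave no call either. The difference between E2 plus fulvestrant and fulvestrant alone was 0.05 for Mt1 (log2, 95% CI −0.34 to 0.45) and 0.11 for Mt2 (95% CI −0.31 to 0.54), and its sign varied among the pairs of both genes. For the other 4 genes it lay between −0.05 and 0.12, and the limma adjusted p was 1 for all 6. In this comparison 0.0% of all genes were called (limma), with 255 genes at an unadjusted p under 0.05. The interaction of E2 and fulvestrant, which tests whether the effect of either agent depends on the other, was −0.25 for Mt1 (95% CI −0.80 to 0.31, limma adjusted p = 0.949) and −0.21 for Mt2 (95% CI −0.82 to 0.39, limma adjusted p = 0.959). It called 0 of the 6 genes and 0.0% of all genes, with 501 genes at an unadjusted p under 0.05. The intervals of the interaction still leave room for a difference of more than 1.5-fold in Mt1 and Mt2.

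The remaining contrasts complete the order of the levels and share samples with those above. E2 plus fulvestrant exceeded vehicle by 1.02 for Mt1 (log2, limma adjusted p = 0.00352), 1.53 for Mt2 (limma adjusted p = 5.6e-04) and 0.28 for Slc39a6 (limma adjusted p = 0.0225), all 3 called, beside 7.04% of all genes called higher. This Slc39a6 call held in 12 of 23 alternatives (limma adjusted p from 0.00231 to 0.95) and was lost without the replicate block, without the variance trend, under quantile and CPM scaling, without vehicle replicate 2 or 3, without any single E2 plus fulvestrant sample, and without all of replicate 2 or 3, at log2 fold changes of 0.22 to 0.33 over all alternatives. Here the Mt2 groups did not overlap, as in 7.66% of all genes on the higher side. Fulvestrant exceeded E2 by 0.66 for Mt1 (limma adjusted p = 0.0343), 1.09 for Mt2 (limma adjusted p = 0.00509) and 0.30 for Slc39a14 (limma adjusted p = 0.00838), beside 5.2% of all genes. These calls held in 15, 21 and 17 of 23 alternatives, in that order, and each was lost without the replicate block and without all of replicate 3. By mean log2 value, the order from high to low for Mt1 and Mt2 was E2 plus fulvestrant, fulvestrant, E2 and vehicle, whereas by mean normalized count Mt1 was higher with fulvestrant (6225) than with E2 plus fulvestrant (5968). By the log2 fit, of the neighboring groups only fulvestrant and E2 differed past the test.

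The spread of the 6 genes followed the replicate number. Replicate 1 was the lowest of its group in 4 of 4 groups for Mt1, Mt2, Mtf1, Slc30a1 and Slc39a6. On the log2 scale, the difference of Mt2 in replicate 1 from the mean of replicates 2 and 3 was −1.83 in vehicle, −1.87 with E2, −0.81 with E2 plus fulvestrant and −1.31 with fulvestrant. For Mt1 the differences were −1.54, −1.75, −0.80 and −1.51. For Mt2 the gap exceeded the rise with fulvestrant in the vehicle and E2 groups and was smaller than it in both groups with fulvestrant. The coefficient of variation within a group was 29.0% to 54.2% for Mt1 and 29.1% to 55.6% for Mt2. After the replicate means were subtracted, the Pearson correlation over the 12 samples was 0.98 between Mt1 and Mt2, 0.92 between Slc39a6 and Slc39a14 and 0.86 between Slc30a1 and Slc39a6, and the lowest was 0.43, between Mtf1 and Slc30a1. These points share the 4 groups and the size factors, and the correlations are descriptions.

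Among the other zinc exporters, Slc30a4, which codes for ZnT4 of intracellular vesicles, rose with fulvestrant. Its normalized counts were 2476, 3841 and 3772 in vehicle, 2507, 4148 and 3831 with E2, 2831, 5085 and 4925 with E2 plus fulvestrant, and 2665, 5199 and 5269 with fulvestrant. Replicates 2 and 3 with fulvestrant lay above all samples without it, as for Slc39a6. The rise was 0.34 ± 0.07 against vehicle (log2, SE, limma adjusted p = 0.00873) and 0.28 ± 0.07 in the presence of E2 (limma adjusted p = 0.0286), with a limma adjusted p of 0.957 and 0.995 without the replicate block. Slc30a4 was the 1 gene of the 6 listed Slc30 genes to be called higher in each comparison, beside 6.76% and 4.97% of all genes, and 0 were called lower. The median log2 fold change of the family was 0.06 and 0.04. Slc30a2, Slc30a3, Slc30a8 and Slc30a10 were not listed in the table, which holds genes with at least 10 reads in every sample.

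Of the 14 Slc39 importer genes 10 were listed, and each fulvestrant comparison called 1 of them higher, Slc39a6 against vehicle (6.76% of all genes) and Slc39a14 in the presence of E2 (4.97%), and 0 lower. The medians of the family were −0.00 and −0.03, and that of all genes was 0.01 in both. Slc39a10, which codes for ZIP10 and which MTF1 is known to repress, had the lowest value in the presence of E2, at −0.27 (95% CI −0.45 to −0.09, limma adjusted p = 0.0581), lower in all 3 pairs, as in 23.6% of all genes, but not past the test. Against vehicle it differed by −0.03 (limma adjusted p = 0.827). Of the metallothionein family, Mt3 and Mt4 were not listed.

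**Figure D4:**
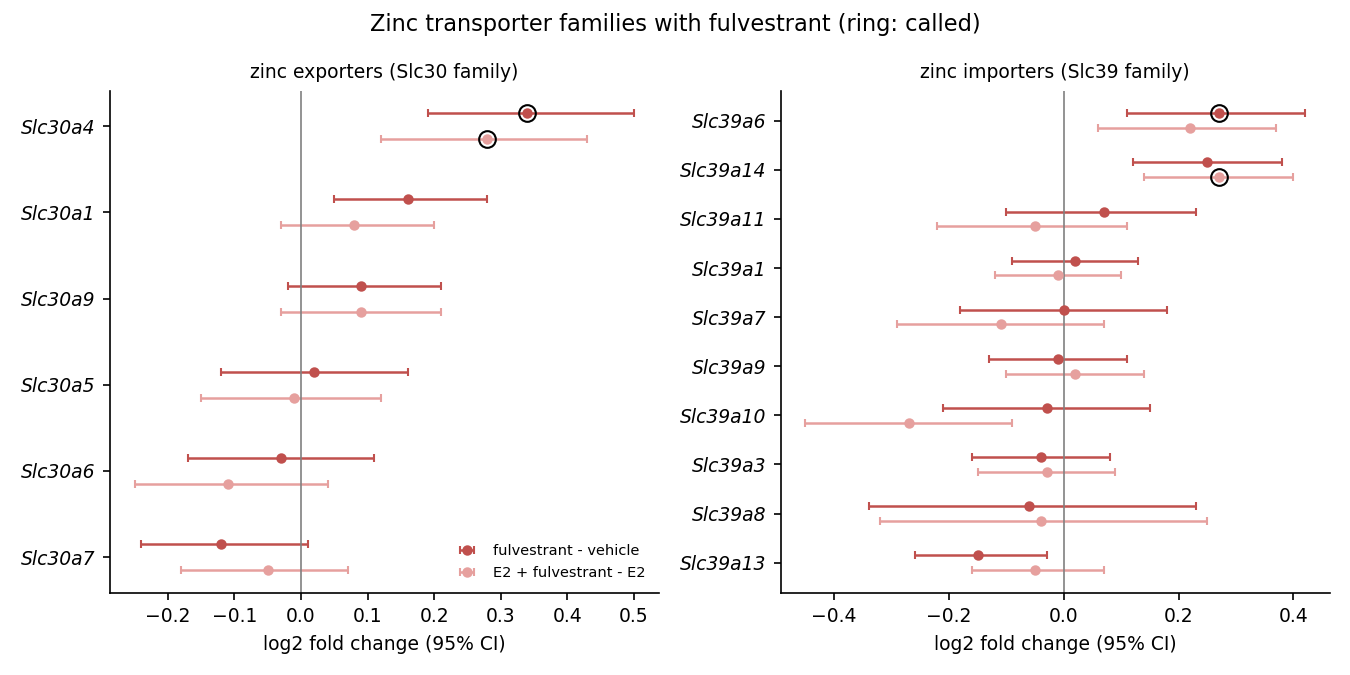
Log2 fold changes (x axis) of the listed Slc30 genes (left) and Slc39 genes (right) for fulvestrant against vehicle and for E2 plus fulvestrant against E2, with 95% confidence intervals and rings around called values. Slc30a4, Slc39a6 and Slc39a14 lie on the right at 0.22 to 0.34, while most of the family lies around 0.

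Known targets of MTF1 moved in both directions. Of 9 such genes 7 were listed, and fulvestrant against vehicle called Mt1, Mt2 and Gclc higher and Slc40a1 lower, beside 6.76% and 5.69% of all genes. In the presence of E2, the same 3 genes were called higher, and Slc40a1 and Selenow lower, beside 4.97% and 4.62%. Gclc, the catalytic subunit of glutamate-cysteine ligase in glutathione synthesis, rose by 0.43 ± 0.06 and 0.51 ± 0.06 (log2, SE, limma adjusted p = 0.00148 and 6.1e-04). Slc40a1, the iron exporter ferroportin, had normalized counts of 244, 209 and 191 in vehicle, 192, 177 and 186 with E2, 85.7, 123 and 121 with E2 plus fulvestrant and 133, 107 and 84.3 with fulvestrant. All 6 samples with fulvestrant lay below all 6 without it, and groups that did not overlap on the lower side made up 5.45% of all genes against vehicle and 6.54% in the presence of E2. The difference was −1.0 ± 0.19 against vehicle (limma adjusted p = 0.00536) and −0.77 ± 0.19 in the presence of E2 (limma adjusted p = 0.0242). Selenow, a small selenoprotein gene, fell by 0.34 in the presence of E2 (limma adjusted p = 0.00419) and differed by −0.20 against vehicle, short of the fold minimum. Without the replicate block 0 of the 7 were called in either comparison, beside 0.544% and 0.521% of all genes.

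Copper, which metallothioneins bind too, has its own transport genes. Of 10 genes for copper uptake, delivery and export 9 were listed, and 0 were called in either fulvestrant comparison, with medians of 0.05 and −0.04. Of all genes, 6.76% were called higher and 5.69% lower against vehicle, and 4.97% and 4.62% in the presence of E2. With 9 genes, a count of 0 is close to these shares. Atp7a, a copper-exporting ATPase, passed on p in the presence of E2 (0.22, limma adjusted p = 0.0381) but not on fold, and against vehicle its difference was 0.19 (limma adjusted p = 0.0571).

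Iron genes changed in both directions. All 12 were listed. Against vehicle, fulvestrant called 4 higher and 1 lower, beside 6.76% and 5.69% of all genes. Tfrc, the transferrin receptor for iron uptake, rose by 0.92 ± 0.08 (log2, SE, limma adjusted p = 9.4e-05), Hmox1, the heme-degrading enzyme, by 0.78 ± 0.14 (limma adjusted p = 0.0038), Fth1, the ferritin heavy chain, by 0.74 ± 0.14 (limma adjusted p = 0.00643) and Ftl1, the light chain, by 0.44 ± 0.13 (limma adjusted p = 0.0381), and Slc40a1 was the gene that fell. With E2 present, where 4.97% of all genes were called higher and 4.62% lower, 3 were called higher (Hmox1 at 0.78, Tfrc at 0.76 and the mitochondrial iron importer Slc25a37 at 0.64) and 2 lower (Slc40a1 at −0.77 and the ferrireductase Steap3 at −0.44). The unblocked fit called 0 and 1 of the 12 (0.544% and 0.521% of all genes), the 1 being Steap3.

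Known inducers of metallothionein other than zinc were represented by 2 further lists. Both lists were chosen with earlier results of these data known, so their counts are descriptions and not a test of either pathway. Of 8 target genes of NRF2, the transcription factor of the oxidant response, 7 were called higher against vehicle (6.76% of all genes) and 6 in the presence of E2 (4.97%), and 0 lower, with medians of 0.45 and 0.46. Nqo1 was called in neither comparison (0.30 and 0.03, limma adjusted p = 0.0552 and 0.86), and Gsr was not called in the presence of E2 (0.22, limma adjusted p = 0.166). Slc7a11, the cystine importer, rose by 0.92 ± 0.12 and 0.82 ± 0.12 (limma adjusted p = 6.8e-04 and 0.00153), and Srxn1, which codes for sulfiredoxin, by 0.63 ± 0.10 and 0.58 ± 0.10 (limma adjusted p = 0.00188 and 0.00385). In vehicle, replicate 1 lay far below replicates 2 and 3 for Slc7a11 (301, 2075 and 2193) and Srxn1 (1265, 8299 and 7736), but not for Gsr (1124, 1110 and 1091). The unblocked fit called 0 of the 8 in either comparison, beside 0.544% and 0.521% of all genes. Of 10 genes known to be induced by glucocorticoids 9 were listed, and all 9 were called higher in both comparisons (6.76% and 4.97% of all genes), with medians of 0.86 and 0.88. Fkbp5, a chaperone of the glucocorticoid receptor, had normalized counts of 307, 956 and 941 in vehicle, 365, 968 and 914 with E2, 9832, 4619 and 4449 with E2 plus fulvestrant, and 9974, 4136 and 3957 with fulvestrant. Its rise was 3.07 ± 0.55 and 3.09 ± 0.55 (limma adjusted p = 0.0044 and 0.00507), and replicate 1 showed the widest gap. Dusp1 rose by 1.38 and 1.34, Cebpd by 1.11 and 1.30, and Tsc22d3 by 0.90 and 0.90. Replicate 1 had the widest gap here too, with pairs against vehicle of 2.18, 0.87 and 1.09 for Dusp1 and 2.03, 0.53 and 0.78 for Cebpd. Tsc22d3 stood at 2925, 1329 and 1231 in vehicle and at 8903, 1874 and 1867 with fulvestrant. The unblocked fit called 2 and 3 of the 9, beside 0.544% and 0.521% of all genes. Over the 12 samples, after the replicate means were subtracted, Fkbp5 correlated with Mt1 at 0.90, Mt2 at 0.96, Slc39a6 at 0.64 and Slc39a14 at 0.75. Hmox1 of the NRF2 and iron lists correlated with the same genes at 0.91, 0.91, 0.91 and 0.87, and Tfrc of the iron list at 0.92, 0.95, 0.88 and 0.91. Whether either pathway takes part in the rise of Mt1 and Mt2 was not tested.

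**Figure D5:**
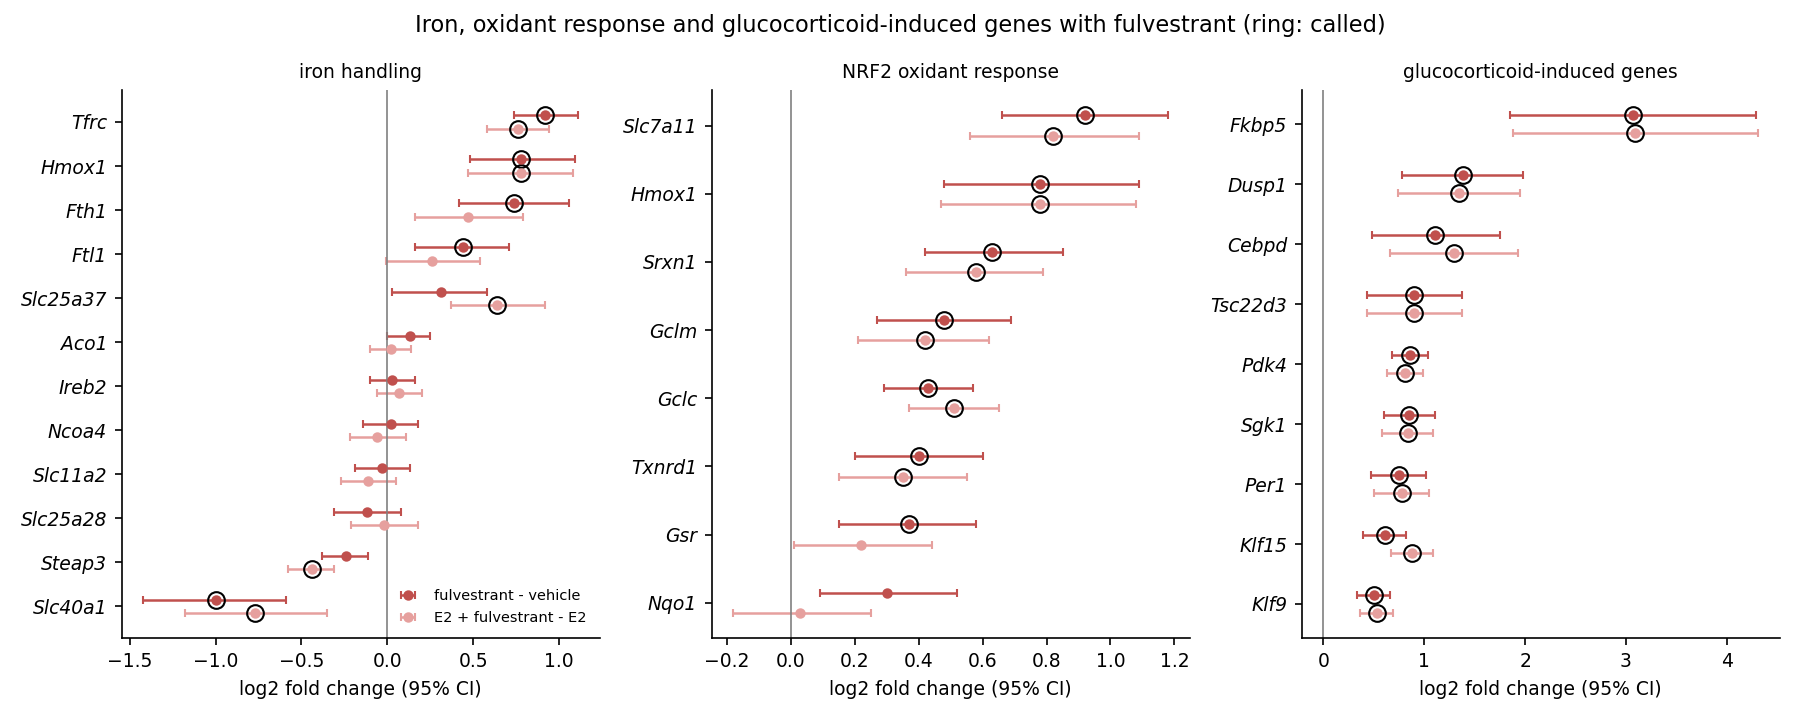
Log2 fold changes (x axis, a different range in each panel) of genes for iron handling, the NRF2 oxidant response and glucocorticoid induction, for fulvestrant against vehicle and for E2 plus fulvestrant against E2, with 95% confidence intervals and rings around called values. Iron genes lie on both sides of 0, from −1.0 for Slc40a1 to 0.92 for Tfrc, while the listed genes of the other panels lie above 0.

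The genes whose pattern was most like that of each of the 6 were found by the Pearson correlation over the 12 samples after the replicate means were subtracted, among 13232 other genes. For Mt1 these were Ddit4 (0.992), Fth1 (0.989) and Arpc1b (0.984), and for Mt2 Tmem123 (0.994), Serpinb6a (0.989) and Camk1d (0.988). Slc39a6 was closest to Eaf1 (0.99), Nploc4 (0.989) and Ppard (0.984), and Slc39a14 to B3galnt2 (0.984), Nsd2 (0.983) and Slc20a1 (0.981). Slc30a1 was closest to Stom (0.962), Prkx (0.96) and Gm22751 (0.959). For Mtf1 the likeness was weaker, with Pom121 (0.908), Mtfr2 (0.906) and Clint1 (0.895). These samples share 4 groups, so any genes that separate samples with and without fulvestrant resemble each other by this measure.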

How the data were processed

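Ribosomal RNA-depleted, stranded RNA-Seq libraries were made from 12 HAF cultures. Per the study's methods, the authors trimmed reads with Trimmomatic 0.39, removed ribosomal reads, aligned to mm10 with STAR 2.5.2, counted reads per gene with HTSeq 0.13.5 on the reverse strand, removed low counts and normalized by DESeq2 1.37 median of ratios. A batch reduction step is named there without its batches. The deposited values are a signal in normalized counts, and all of them are whole reads divided by 1 factor per sample, within 0.02 reads. Every listed gene has at least 10 reads in each sample, with 18827792 to 44040507 reads per sample on the listed genes. Of the 13233 genes, 13149 were given a symbol through GENCODE M21 (GRCm38, the same assembly as mm10), which also gave positions and exon lengths. Promoters came from RefSeq (GRCm38.p6), and 4 of the 6 genes matched there. Slc39a6 and Slc39a14 were not matched.

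Values were tested as log2(normalized count + 1) with limma 3.58.1 in R 4.3.3 (empirical Bayes with a variance trend), over all 12 samples in 4 groups with the replicate number as a block. Fold changes on this scale understate those of low genes. P-values were adjusted by Benjamini-Hochberg across the 13233 genes. Calls needed an adjusted p under 0.05 together with a fold over 1.2. The fit was also run on simulated data with known changes, and the outcome of that run is not given here. The block follows from the pairing by number, which the labels do not explain. After the group means were subtracted, samples with the same number in different groups correlated at 0.63 to 0.92 (18 pairs), and samples with different numbers at −0.86 to 0.79 (36 pairs). The 6 genes and all gene lists were chosen with earlier results of these data known. Named genes were the 6, up to 4 called genes with the greatest change from each list (or 2 when none was called), and the 3 most correlated genes for each of the 6. Some further genes are named because they were not called. Alternatives covered the block, the samples in the fit, the pseudocount (10), a mean of at least 100, the variance trend, the scaling, the fold minimum and each sample or replicate number left out. A further marker list is not reported here.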

Additional observations from a re-analysis of the deposited data

How the results depend on the processing

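Mt2 kept its direction in all alternatives of both fulvestrant comparisons and was called in 22 of 23 against vehicle (log2 1.25 to 1.64) and 21 of 23 in the presence of E2 (0.85 to 1.42). Mt1 was called in 21 of 23 (0.80 to 1.13) and 14 of 23 (0.40 to 0.96).

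The replicate block decided the calls. Without it, 0 of the 6 genes were called in fulvestrant against vehicle, E2 plus fulvestrant against E2, E2 plus fulvestrant against vehicle and fulvestrant against E2, where 3 were called in each with the block. The paired fit and the unpaired fit gave the same mean differences, and the unpaired fit set them against the spread between replicate numbers. Fitting only the 2 groups compared called 1 gene, Mt2, in E2 against vehicle, and lost Mt1 in E2 plus fulvestrant against E2, Slc39a6 in fulvestrant against vehicle and Slc39a14 in fulvestrant against E2. When a sample or a replicate number was left out, the number called ranged from 1 to 4 in fulvestrant against vehicle, 0 to 3 in E2 plus fulvestrant against E2, 1 to 3 in E2 plus fulvestrant against vehicle and 0 to 4 in fulvestrant against E2, and it stayed at 0 in the others. Without replicate 3 the counts were 1, 0, 1 and 0 in that order, while the calls among all genes fell to 399, 316, 541 and 285, from 1648, 1270, 1681 and 1379. A count of 1 was also left by E2 replicate 3 or E2 plus fulvestrant replicate 3 in E2 plus fulvestrant against E2, and by E2 replicate 3, fulvestrant replicate 2 or all of replicate 2 in fulvestrant against E2, when left out. The cause was not tested.

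Some differences near 0 changed sign. Mtf1 in fulvestrant against vehicle was −0.0062 under CPM, and Slc39a6 in E2 plus fulvestrant against fulvestrant was −0.0046 under quantile scaling. With samples left out, Mtf1 ran from −0.0046 to 0.07 in fulvestrant against vehicle and from −0.06 to 0.0096 in E2 against vehicle. In the latter comparison Slc30a1 ran from −0.02 to 0.07 and Slc39a6 from −0.02 to 0.12. In E2 plus fulvestrant against fulvestrant, Mt1 ran from −0.21 to 0.24, Mt2 from −0.17 to 0.27, Slc39a6 from −0.08 to 0.06 and Slc39a14 from −0.08 to 0.0033. In the interaction, Slc39a6 ran from −0.13 to 0.03 and Slc39a14 from −0.03 to 0.07. None of these had been called.

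CPM scaling turned the split of all called genes against vehicle from 895 higher and 753 lower to 702 and 958 for fulvestrant, and from 932 and 749 to 685 and 951 for E2 plus fulvestrant. The number of genes called against vehicle by fulvestrant was 1648 with the block and 72 without it, and 1270 and 69 in the presence of E2. The planned count tests (edgeR, DESeq2) and TMM scaling were not run. The values were whole reads divided by a factor per sample, within the tolerance given above. However, the check set for running count tests did not accept them as recovered reads, because genes with few reads are not listed. The read numbers and the chi-square comparison in this report rest on that division by a factor and not on that check. The share of the spread that comes from read depth was not tested.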
